A study of Mus musculus with 24 samples.

Results

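The interferon-stimulated genes described here are 36 genes chosen by name for their place in the antiviral response, all of which were found among the 24015 gene symbols of the count table. They comprise 4 transcription factors of interferon signalling, 3 cytoplasmic RNA sensors, 9 RNA-binding effectors, 4 membrane or dynamin-like effectors, 2 members of the ISG15 system, 6 other antiviral genes and 8 interferon-gamma-inducible GTPases. The study asked how well RNA sequencing of formalin-fixed, paraffin-embedded (FFPE) liver recovers a chemical response seen in frozen liver. Furan, a small volatile ring compound that the liver oxidises to a reactive product, was given by gavage at 8 mg per kg body weight daily for 21 days in corn oil to female B6C3F1 mice, an F1 hybrid strain, and control females of that strain were gavaged with corn oil alone. Mice were specific-pathogen-free and 5 to 6 weeks old when bought, and were killed 4 h after their final gavage. Every liver was divided into 3, of which 1 was frozen, 1 stayed 18 h in formalin and 1 stayed 3 weeks in formalin.

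Furan animals 41, 42, 43 and 44 and control animals 02, 03, 04 and 06 each gave a library from both FFPE pieces. Frozen libraries of furan animals 41, 43 and 44 and control animals 02, 04 and 06 were used, so the frozen comparison had 3 animals a group and both FFPE comparisons had 4. Total gene counts were 33101755 to 58048387 per frozen library, 16269854 to 22494012 after 18 h of formalin and 3666173 to 11780691 after 3 weeks. The lowest totals belonged to control animal 02 and furan animal 43 after 3 weeks. The common dispersion of edgeR, a measure of spread between animals of a group, was 0.0150 in frozen liver, 0.0284 after 18 h and 0.336 after 3 weeks. Levels are given in CPM, counts scaled to an equal library size over all 22 libraries. The summed level of hepatocyte markers had group medians of 81862 to 151433 CPM, the highest of the marker lists, as the label liver implies.

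Interferons are secreted proteins that cells release when they sense foreign nucleic acid. Type I interferons act through a receptor made of Ifnar1 and Ifnar2 and the kinases Jak1 and Tyk2, which phosphorylate Stat2. Stat2 and Irf9 are part of a complex that binds the interferon-stimulated response element, and the response to interferon gamma runs through the gamma-activated site. In liver, hepatocytes, resident macrophages (Kupffer cells) and endothelial cells all carry this machinery and keep a low level of many of the genes switched on without infection.

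Among the 36 members, 28 had a window of 250 bases before the gene start in the RefSeq promoter table of build GRCm38.p6. The response element was searched as GAAANNGAAA on both strands, counting matches that overlap each other, and was present in 16 of these 28 windows (57.1%), against 567 of 16760 windows of all genes (3.38%). All 6 interferon-gamma-inducible GTPases that had a window held a match. The gamma-activated site, searched as TTCNNNGAA, was present in 8 of 28 windows (28.6%), against 7.89% of all windows. Stretches of 60 bases from 8 members are printed below because they carry the element in the genes on which the later results turn, including the pair Apol9a and Apol9b, whose stretches were identical letter for letter. Capitals mark the matches to GAAANNGAAA or to its reverse complement, and each sequence is written 5′ to 3′ on the strand of its gene, from RefSeq GRCm38.p6.
Apol9a, chr15:77411105-77411164, minus strand: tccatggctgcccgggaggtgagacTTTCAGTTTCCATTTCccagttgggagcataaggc
Apol9b, chr15:77729010-77729069, plus strand: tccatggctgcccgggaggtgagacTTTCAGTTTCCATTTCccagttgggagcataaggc
Ifit1, chr19:34640760-34640819, plus strand: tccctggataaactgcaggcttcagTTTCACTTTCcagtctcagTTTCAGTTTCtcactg
Isg15, chr4:156200862-156200921, minus strand: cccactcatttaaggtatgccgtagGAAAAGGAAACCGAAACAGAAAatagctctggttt
Rsad2, chr12:26456538-26456597, minus strand: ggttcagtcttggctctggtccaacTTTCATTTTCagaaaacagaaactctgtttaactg
Irgm1, chr11:48871421-48871480, minus strand: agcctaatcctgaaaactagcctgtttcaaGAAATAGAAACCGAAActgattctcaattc
Gbp2, chr3:142620579-142620638, plus strand: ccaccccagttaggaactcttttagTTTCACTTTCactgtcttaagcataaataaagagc
Gbp5, chr3:142496744-142496803, plus strand: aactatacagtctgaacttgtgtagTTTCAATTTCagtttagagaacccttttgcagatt

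The members were expressed at very different levels in control liver. Per kilobase of transcript, Iigp1, a GTPase of the immunity-related family that attacks the vacuoles of intracellular parasites, stood highest with 110.6 ± 15.2 CPM per kb in furan livers and 144 ± 15.4 CPM per kb in control livers (SD, n = 3 each, frozen). Bst2 (tetherin), which holds budding virus particles at the cell surface, followed with 74.7 ± 8.53 CPM per kb in furan livers and 72.0 ± 7.94 in control livers, and Apol9b came next with 31.8 ± 7.42 in furan livers and 47.0 ± 7.54 in control livers. Irgm1, Igtp and Apol9a had control means of 25.4 ± 4.06, 24.5 ± 5.20 and 24.0 ± 5.53 CPM per kb, so these 3 did not differ beyond their spread. At the low end, Gbp5, Oas3 and Mx1 had control means of 0.929 ± 0.225, 0.788 ± 0.635 and 0.582 ± 0.149 CPM per kb (SD, n = 3). Levels given below are in CPM without division by length.

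Interferon genes themselves were close to absent from all libraries. Of 19 interferon genes in the table, 13 had no count in any of the 22 libraries, and the 19 together had 52 counts. The largest number in 1 library was 12, for Ifnb1 (interferon beta) in control animal 03 after 18 h of formalin. None was abundant enough to be tested, and a transcript released briefly at another time would not be seen here.

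Whether furan changed the members was tested within each kind of piece with edgeR's quasi-likelihood test, with Benjamini-Hochberg adjustment over all genes tested and a threshold of 0.05. In frozen liver, 0 of 36 members passed, where 15.7% of 13794 genes passed (8.21% higher and 7.47% lower in furan livers). At an unadjusted p under 0.05 there were 5 members, against 32.0% of all genes, and DESeq2 called 3 (Apol9b, Iigp1 and Rsad2), where it called 16.3% of genes. After 18 h of formalin 1 of 35 members passed and was lower, where 8.39% of 12832 genes passed (3.92% higher, 4.47% lower). After 3 weeks 1 of 36 passed and was lower, where 0.821% of 12064 genes passed (0.298% higher, 0.522% lower). DESeq2 called 2 members after 18 h (Apol9b and Gbp3) and 3 after 3 weeks (Apol9a, Apol9b and Gbp5), where it called 10.1% and 2.84% of genes. In 1 edgeR model of all 6 groups, which shares 1 spread among them, 0 of 36 members were called in frozen liver and after 18 h. Of 14054 genes, 138 and 225 were called there, so 0 members is near the share of all genes. At an unadjusted p under 0.05 there were 2 and 1 members. After 3 weeks this model called 6 of 36. Of these 6, Dhx58, Gbp5 and Oas1a were higher and Apol9a, Apol9b and Rtp4 lower, where 14.4% of 14054 genes were called (7.38% higher, 7.07% lower).

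Few members separated the groups completely in frozen liver and after 18 h, and more did after 3 weeks. In frozen liver every furan library was above every control library for 2 of 36 members, Rsad2 and Ifi35, and below for 1, Apol9b, where 37.6% of all genes separated (17.4% higher, 20.3% lower). After 18 h this held for 0 of 35 members higher and for 1 lower, Apol9b, against 15.4% of all genes (7.37% higher, 8.07% lower). After 3 weeks it held for 3 of 36 higher, Dhx58, Gbp5 and Oas1a, and for 3 lower, Apol9a, Apol9b and Rtp4, against 8.81% of all genes (3.86% higher, 4.95% lower). Gbp5 and Oas1a passed the filter on low counts there only through the furan libraries, so their separation was partly set by the filter. The median log2 fold change of the members, furan over control, was -0.01, -0.06 and 0.02 in the frozen, 18 h and 3 week pieces, and that of all genes tested was -0.01, -0.01 and 0.02. The members with a fold change above 0 numbered 17 of 36, 13 of 35 and 19 of 36. Standard errors set what could be seen: their median over the members was 0.19 in frozen liver, 0.20 after 18 h and 0.40 after 3 weeks.

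**Figure D1:**
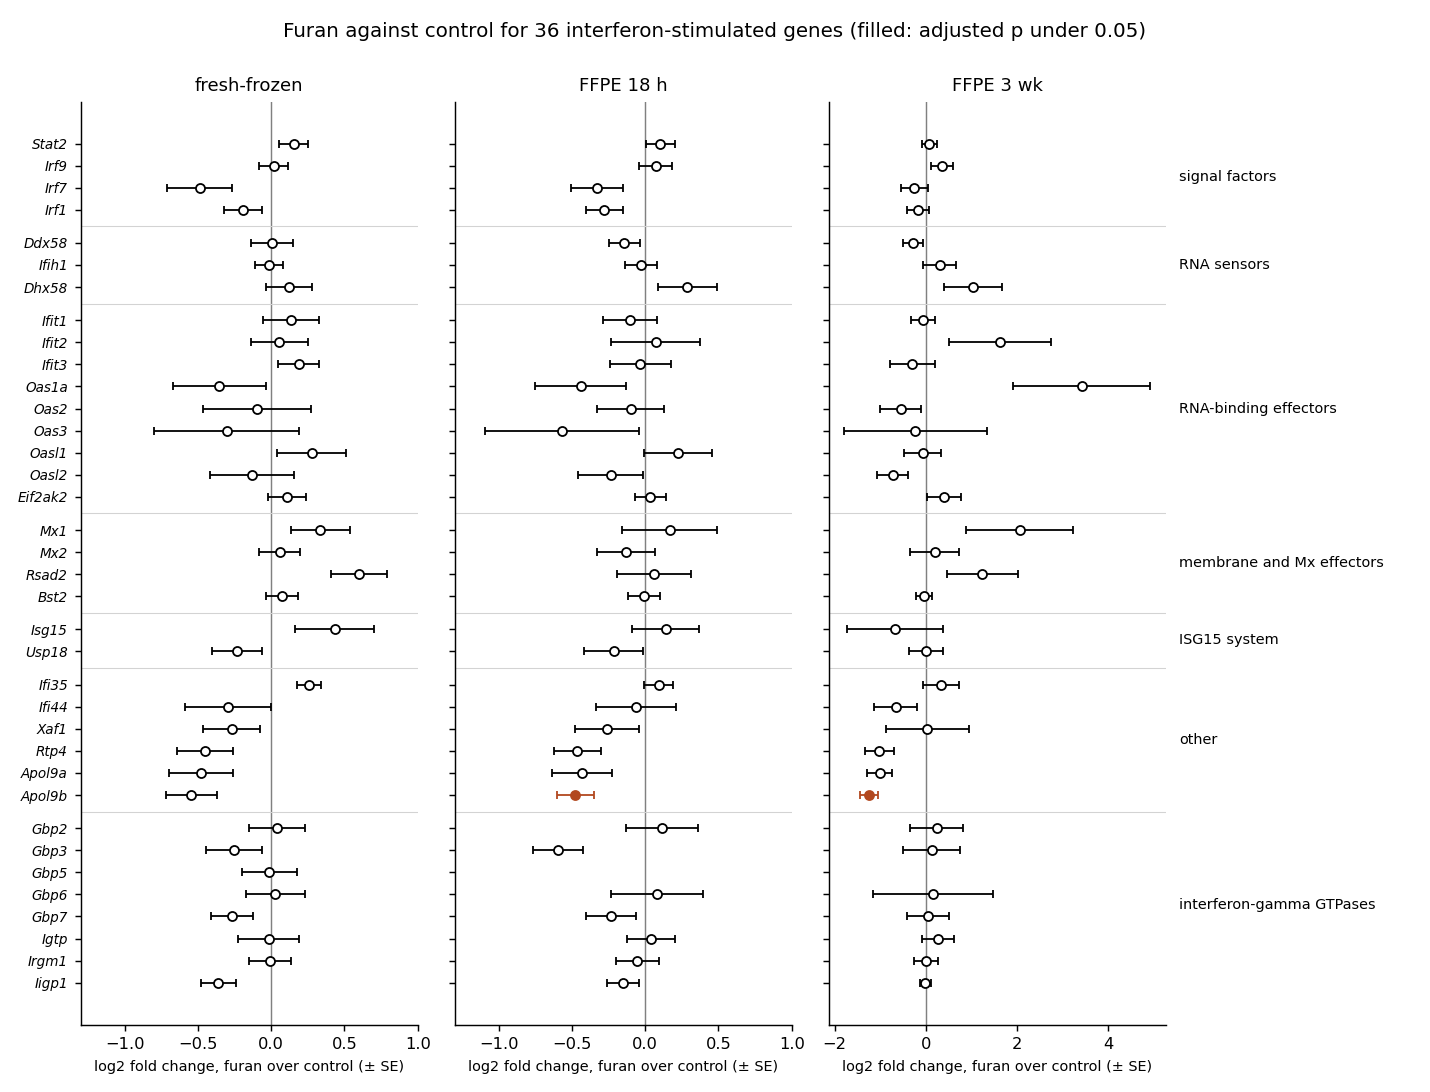
Log2 fold changes of the members, furan over control, in frozen liver and after 18 h and 3 weeks in formalin, with bars of 1 standard error; filled points passed the adjusted p threshold of 0.05. Apol9b alone is filled, after 18 h and after 3 weeks, and the bars are wider after 3 weeks, with a median standard error of 0.40 against 0.19 in frozen liver; Gbp5 is not drawn after 18 h, where it was not tested, or after 3 weeks, where its control libraries held 1 count.

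The member called in both formalin comparisons was Apol9b, an apolipoprotein L gene of the mouse that interferon induces. In frozen liver it had 37.6, 60.7 and 51.9 CPM in furan animals 41, 43 and 44, against 65.8, 87.5 and 68.4 CPM in control animals 02, 04 and 06. After 18 h it had 81.9, 89.6, 130.6 and 106 CPM in furan animals 41 to 44, against 139, 153, 147 and 131.3 CPM in control animals 02, 03, 04 and 06. After 3 weeks it had 39.5, 44.3, 56.9 and 48.3 CPM in the furan animals and 80.5, 107, 148 and 125 CPM in the controls. In each kind of piece every furan library lay below every control library, narrowly so after 18 h. Apol9b fell by 0.48 ± 0.12 on the log2 scale after 18 h (SE, adjusted p = 0.0305 by edgeR's quasi-likelihood test) and by 1.24 ± 0.20 after 3 weeks (adjusted p = 0.00964). In frozen liver its log2 fold change was -0.54 ± 0.18 with adjusted p = 0.0733. The 3 comparisons use pieces of the same animals and are not independent. Because whole liver was sequenced, fewer cells of a type and less RNA per cell cannot be told apart for any member. The summed level of 9 endothelial markers was lower in furan livers with no overlap in any piece: 314 to 387 CPM in furan and 448 to 476 CPM in control livers when frozen, 332 to 384 CPM in furan and 442 to 484 CPM in control livers after 18 h, and 404 to 449 CPM in furan and 491 to 571 CPM in control livers after 3 weeks. Of all single genes, 20.3%, 8.07% and 4.95% lay lower without overlap in these pieces. By edgeR 4 of the 9 (Stab2, Oit3, Clec4g and Kdr) fell in frozen liver, where 7.47% of all genes fell. After 18 h 2 (Stab2 and Oit3) fell, where 4.47% of all genes fell. After 3 weeks 0 were called, with 2 at an unadjusted p under 0.05, and 3 of the 9 had a log2 fold change above 0. Of 12 macrophage markers, 10, 11 and 9 had log2 fold changes below 0 in the frozen, 18 h and 3 week pieces, and 0 were called. None of the 9 endothelial markers was at 0 throughout a group. The part of either list in the furan differences of the members was not tested.

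The paralogue Apol9a also had negative differences, which did not pass in the separate edgeR models. Its log2 fold changes were -0.48 ± 0.22, -0.43 ± 0.21 and -1.02 ± 0.27 in the frozen, 18 h and 3 week pieces, with adjusted p of 0.173, 0.231 and 0.105 from edgeR. After 3 weeks it had 19.9, 21.7, 42.9 and 27.1 CPM in the furan animals, against 47.8, 59.6, 76.9 and 45.7 CPM in the controls, so the groups did not overlap there. For these 3 week pieces it did pass by DESeq2 (adjusted p = 0.0311), by edgeR with no filter on low counts (0.0343) and in the model of all 6 groups (0.00908). The 2 genes share most of their transcript: 57.5% of the 50-base words of Apol9a and 51.4% of those of Apol9b occur in the other. How reads were split between the copies is therefore uncertain. With their counts summed, the difference passed after 3 weeks (-1.16 ± 0.19, adjusted p = 0.0140 by edgeR) and did not pass after 18 h (-0.46 ± 0.15, adjusted p = 0.0758) or in frozen liver (-0.52, adjusted p = 0.100).

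The 18 h call of Apol9b was the less firm of its calls. It passed in 6 of 14 alternative settings, with log2 fold changes between -0.61 and -0.38, and it no longer passed when any of furan animals 41, 42 and 44 or control animals 02, 03 and 04 was left out. The 3 week call passed in 13 of 15 settings, with log2 fold changes of -1.45 to -1.09, and was lost without furan animal 44 (adjusted p = 0.0571) and with only the 3 animals a group that have a frozen library (adjusted p = 0.0877). The frozen difference passed in 1 of 11 settings. Whether the Apol9b fold change differs between pieces was tested as an interaction, and no gene passed in any of the 3 interactions (0% of 13739, 13156 and 13282 genes, edgeR). At an unadjusted p under 0.05 there were 0, 4 and 3 members in the interactions of 18 h minus frozen, 3 weeks minus frozen and 3 weeks minus 18 h, against 3.31%, 4.48% and 6.71% of all genes. For Apol9b the furan effect after 3 weeks minus that after 18 h was -0.80 ± 0.24 (adjusted p = 0.424), and after 3 weeks minus that in frozen liver was -0.68 ± 0.28 (adjusted p = 1.00). DESeq2 called 1, 38 and 97 genes in these interactions, among them 0, 1 and 2 members. Those member calls are too few to read as a result about the members.

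**Figure D2:**
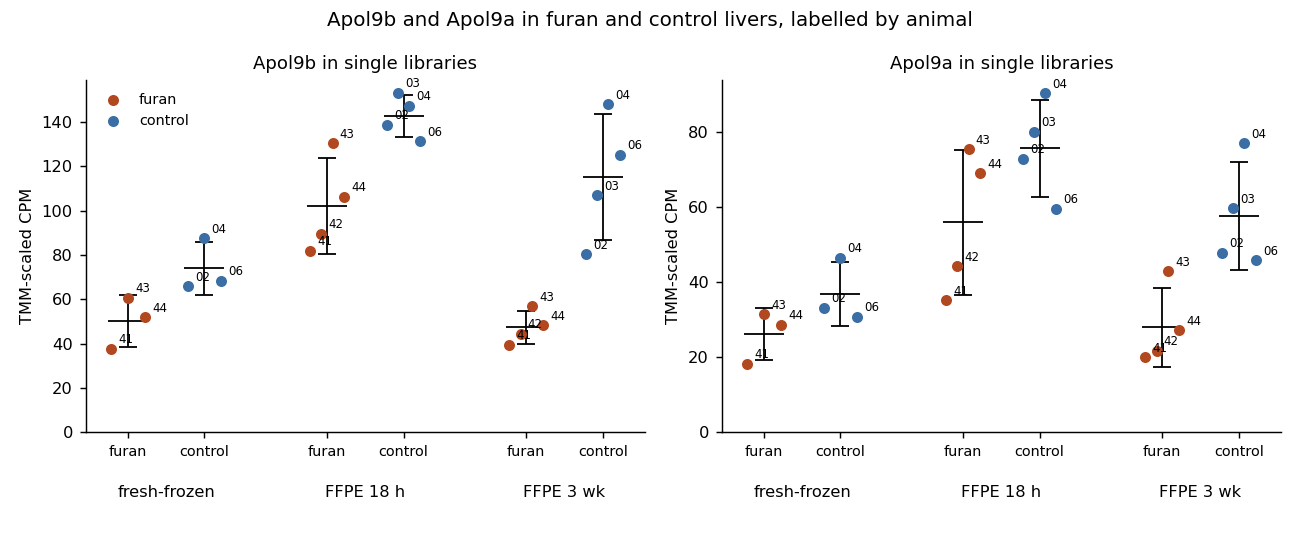
CPM of Apol9b and Apol9a in each library of furan-treated (left of each pair) and control animals by kind of piece, labelled by animal, with group mean ± SD. Every furan library lies below every control library for Apol9b in all 3 pieces, and for Apol9a this holds in the 3 week pieces.

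Among the transcription factors, 0 of 4 passed in any piece in the separate edgeR models. Irf7, which amplifies type I interferon production, had 21.2, 30.6 and 26.1 CPM in frozen livers of furan animals 41, 43 and 44, against 28.0, 50.9 and 31.6 CPM in control animals 02, 04 and 06. The groups overlapped, and its log2 fold change was -0.49 ± 0.22 (adjusted p = 0.174, edgeR), then -0.33 ± 0.18 after 18 h and -0.25 ± 0.30 after 3 weeks. Stat2, the signal transducer specific to type I and III interferon, had log2 fold changes of 0.15 ± 0.10, 0.10 ± 0.10 and 0.07 ± 0.16 in the frozen, 18 h and 3 week pieces. Irf9, its partner that contacts DNA, had values of 0.02, 0.07 and 0.35. Irf1, an early target of interferon gamma, had -0.19 ± 0.13, -0.28 ± 0.13 and -0.17 in the same pieces. All 4 stayed within 0.5 of 0 on the log2 scale in the 3 comparisons.

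The RNA sensors also did not pass in the separate edgeR models. Ddx58 (RIG-I), which detects RNA with a 5′ triphosphate, had log2 fold changes of 0.01, -0.14 and -0.28, and Ifih1 (MDA5), which detects long double-stranded RNA, had -0.01, -0.03 and 0.31. Dhx58 (LGP2), a helper of Ifih1, had 6.23, 7.51, 11.01 and 10.01 CPM in the 3 week pieces of furan animals 41 to 44, against 4.73, 2.24, 5.78 and 4.73 CPM in the controls. The groups did not overlap, but the difference of 1.03 ± 0.63 did not pass (adjusted p = 0.632, edgeR), though the model of all 6 groups called it.

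Of the 9 RNA-binding effectors, 0 passed in any piece in the separate edgeR models. Their log2 fold changes ran from -0.35 (Oas1a) to 0.28 (Oasl1) in frozen liver and from -0.57 (Oas3) to 0.22 (Oasl1) after 18 h. Ifit1, which binds viral RNA caps, had 0.14 ± 0.19 in frozen liver, -0.10 ± 0.18 after 18 h and -0.06 ± 0.26 after 3 weeks. Ifit3, which stabilises Ifit1 in humans, had 0.19, -0.03 and -0.30, and shares 51.2% of its 50-base words with Ifit3b. Eif2ak2 (PKR), the kinase that halts translation on double-stranded RNA, had 0.11, 0.03 and 0.40. Oasl2, a 2′-5′ oligoadenylate synthetase-like gene, had -0.13, -0.23 and -0.72 ± 0.34. Oas1a, a 2′-5′ oligoadenylate synthetase, had the largest positive difference of this class after 3 weeks, 3.42 ± 1.51 (adjusted p = 0.409, or 0.00331 in the edgeR model of all 6 groups), from 1.21, 4.36, 4.13 and 2.37 CPM in the furan animals against 0, 0.778, 0.0875 and 0.197 CPM in the controls. That fold rests on 99 counts in furan and 11 counts in control libraries, and 57.6% of the words of Oas1a occur in Oas1g. In the separate 3 week model Oas1a passed the filter on low counts only through the furan libraries.

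Rsad2 (viperin), a radical SAM enzyme that makes a chain-terminating nucleotide, had the largest positive difference of the frozen pieces. It had 14.1, 17.1 and 11.4 CPM in furan animals 41, 43 and 44, against 10.1, 11.3 and 7.05 CPM in control animals 02, 04 and 06. The groups did not overlap, narrowly, and the difference of 0.60 ± 0.19 gave adjusted p = 0.0720 by edgeR and 0.0173 by DESeq2. After 18 h its difference was 0.06 ± 0.25 and after 3 weeks it was 1.23 ± 0.78 (adjusted p = 0.652). Mx1, a dynamin-like GTPase, had 0.34 ± 0.20, 0.17 and 2.05 ± 1.17 in the frozen, 18 h and 3 week pieces. Bst2 had 0.07 ± 0.11, -0.01 and -0.03.

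Isg15, the ubiquitin-like protein that is joined to viral and cellular proteins, had 3.06, 5.56 and 5.31 CPM in frozen livers of furan animals 41, 43 and 44, against 3.33, 4.50 and 2.55 CPM in control animals 02, 04 and 06. The groups overlapped, and its log2 fold change was 0.43 ± 0.27 (adjusted p = 0.319, edgeR), then 0.14 after 18 h and -0.68 ± 1.05 after 3 weeks. Usp18, the protease that removes Isg15 and quiets the type I receptor, had -0.23, -0.22 and -0.00. Among the remaining antiviral genes, Ifi35 had 15.9, 16.7 and 18.7 CPM in frozen furan livers and 14.2, 14.8 and 14.5 CPM in frozen control livers, with a difference of 0.26 ± 0.08 (adjusted p = 0.0762). Rtp4, a chaperone of receptor trafficking that interferon induces, had negative differences of -0.45 ± 0.19, -0.46 ± 0.16 and -1.02 ± 0.31 in the frozen, 18 h and 3 week pieces, with adjusted p of 0.146, 0.0968 and 0.165. After 3 weeks Rtp4 had 17.8, 19.6, 17.0 and 15.2 CPM in furan animals 41 to 44, against 26.3, 50.4, 46.9 and 21.5 CPM in the controls, and the groups did not overlap.

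The GTPases that interferon gamma induces gave no call in the separate edgeR models, and some calls with other settings. Iigp1 had 313, 399.5 and 323 CPM in frozen livers of furan animals 41, 43 and 44, against 487, 465 and 395 CPM in control animals 02, 04 and 06. Furan animal 43 overlapped control animal 06, and the difference of -0.36 ± 0.12 gave adjusted p = 0.0780 by edgeR and 0.0230 by DESeq2. In the formalin pieces the difference of Iigp1 was -0.15 after 18 h and -0.02 after 3 weeks. Igtp and Irgm1, regulators of the same GTPase family, had differences of -0.02 and -0.01 in frozen liver, 0.04 and -0.05 after 18 h, and 0.26 and 0.00 after 3 weeks. Gbp2, a guanylate-binding protein that attacks pathogen vacuoles, had 0.04, 0.11 and 0.24. Gbp3, of the same family, came nearest to a call after 18 h, with 6.28 to 8.31 CPM in the furan animals, against 7.97 to 13.0 CPM in the controls. Furan animal 43 lay above control animal 06 and below the other controls, and the difference was -0.59 ± 0.17 (adjusted p = 0.0506, edgeR). At nearly the same fold it passed by DESeq2 (adjusted p = 0.0320), and by edgeR with no filter on low counts (0.0492) or with robust dispersions (0.0462).

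Gbp5, a guanylate-binding protein that promotes inflammasome assembly, stood apart in the 3 week pieces. In the separate model of these pieces it passed the filter on low counts only through the furan libraries. It had 1.67, 4.24, 4.13 and 3.56 CPM in furan animals 41 to 44, against 0, 0, 0.0875 and 0 CPM in control animals 02, 03, 04 and 06. This is 119 counts in the furan libraries and 1 count in the control libraries, a ratio of 116 with a 95% counting interval of 20.5 to 4639. That interval covers counting error only, and edgeR gave adjusted p = 0.105, against 0.00133 by DESeq2 and 0.000108 in the edgeR model of all 6 groups. In frozen liver, where the gene had 381 counts in furan and 418 in control libraries, its difference was -0.01 ± 0.19. After 18 h it was too low to be tested, with 43 counts in furan and 20 in control libraries.

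Several of these negative results changed when control animal 06 was left out. On average its members lay lowest of the controls, with mean deviations of -0.22, -0.28 and -0.43 in the frozen, 18 h and 3 week pieces. Leaving out this animal therefore moves the furan differences down by itself, and the calls below do not show a furan effect on their own. Without the frozen library of animal 06, 3 members were lower in furan livers and passed (Iigp1, Irf1 and Rtp4), where 11.7% of genes passed and 5.43% were lower. Without its 18 h library 5 members were lower and passed (Apol9b, Gbp3, Iigp1, Irf1 and Rtp4), where 9.82% of genes passed and 5.20% were lower. Gbp3 then had a log2 fold change of -0.71 (adjusted p = 0.0101, edgeR) and Irf1 one of -0.39 (adjusted p = 0.0180). Without its 3 week library 3 members were lower and passed (Apol9a, Apol9b and Rtp4), where 1.38% of genes passed and 0.821% were lower. The ribosomal RNA precursor Rn45s took 37.3% of the counts in the 18 h library of this animal and 6.42% to 16.5% in the other 18 h libraries. The part of that share in these results was not tested.

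Other genes of the pathway were examined as lists. Of 16 interferon receptor, kinase and feedback genes tested, Stat3, a transducer shared with interleukin 6, rose by 0.43 ± 0.10 on the log2 scale and Ifnar2, a chain of the type I receptor, fell by 0.33 ± 0.08 in frozen liver. After 18 h Stat3 rose by 0.42 ± 0.10 and Ifnar1, the other chain, fell by 0.33 ± 0.09. Of 20 genes that lead from RNA or DNA sensing to interferon, 2 rose in frozen liver, Traf3 by 0.58 and Trim25 by 0.45, and Irf2, a repressor of interferon genes, fell by 0.26. Trim25, the ubiquitin ligase that activates RIG-I, also rose by 0.33 after 18 h. After 3 weeks 0 of 16 and 0 of 17 genes of these lists passed by edgeR, with 0 and 2 at an unadjusted p under 0.05 and median log2 fold changes of 0.11 and 0.04. All calls of these lists are from edgeR at an adjusted p under 0.05. Of all genes tested, 15.7% were called in frozen liver, 8.39% after 18 h and 0.821% after 3 weeks. The calls of these lists in frozen liver and after 18 h were near those shares and do not set the lists apart.

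A further list held 78 other interferon-inducible genes. In frozen liver 2 of 75 tested rose and 2 fell, a smaller share than the 15.7% of all genes called there, and the median log2 fold change was -0.12. Cxcl10, a chemokine that draws activated T cells, rose by 1.46 ± 0.15, with means of 4.68 CPM in furan livers and 1.72 CPM in control livers, and it rose by 1.24 ± 0.26 after 18 h. Tnfsf10 (TRAIL), a ligand that triggers cell death, fell by 0.81 and Serping1, the inhibitor of complement C1, fell by 0.50. After 18 h 1 of 74 rose and 6 fell, where 8.39% of all genes were called, among them Nlrc5, the activator of MHC class I genes, by 0.72, and Serping1 by 0.31. After 3 weeks Serping1 alone of 72 was called, and fell by 0.59.

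Each animal gave up to 3 pieces of 1 liver, so differences between animals of the same treatment could be set against the differences between pieces. A test for any difference between animals within a treatment, in 1 edgeR model of all 22 libraries with terms for piece and treatment, called 3 of 36 members, where 2.63% of 14054 genes were called. These were Apol9a (adjusted p = 0.000465), Apol9b (adjusted p = 0.0371) and Ifit1 (adjusted p = 0.0434). Apol9a passed in 15 of 16 alternative settings, Apol9b in 10 of 16 and Ifit1 in 5 of 17. With any 1 of the 8 animals left out, Apol9a passed each time and Ifit1 did not (adjusted p = 0.0624 to 0.168), and Apol9b did not pass without animal 04, 41, 43 or 44 (adjusted p = 0.0786 to 0.443, edgeR). At an unadjusted p under 0.05 there were 17 of 36 members, against 9.14% of all genes. Irf7, Irgm1 and Oasl1 came next with adjusted p of 0.0682, 0.154 and 0.173. With the counts of Apol9a and Apol9b summed, the adjusted p was 0.00100.

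The number called depended on which pieces entered. Without the 3 week libraries 24 of 36 members were called, where 10.6% of 13966 genes were called, and Irf7, Oasl1 and Irgm1 had adjusted p of 2.46e-05, 0.000936 and 0.0115 by edgeR. With limma voom and sample quality weights, which give more variable libraries less weight, 22 of 36 were called, where 10.7% of genes were called. Without the 18 h libraries 0 members were called by edgeR (4 at an unadjusted p under 0.05), where 0.569% of 13540 genes were called. Without the frozen libraries 1 was called, Apol9a, where 1.15% of 13282 genes were called.

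In some animals most members deviated the same way, and in others they were split. Control animal 04 was above its group mean for 36 of 36 members in frozen liver, 34 of 36 after 18 h and 26 of 36 after 3 weeks. Its mean deviation over the members was 0.31, 0.24 and 0.31 on the log2(CPM + 1) scale in these pieces, while the median over all genes lay within 0.04 of 0 in every library. Control animal 06 stood at the other end, with mean deviations of -0.22, -0.28 and -0.43. Among the furan animals, animal 43 had mean deviations of 0.16, 0.21 and 0.16, and animal 41 had -0.20, -0.19 and -0.20. Control animal 03, without a frozen library here, had 0.16 in both formalin pieces. The other animals lay nearer 0: control animal 02 had -0.09, -0.12 and -0.04, furan animal 44 had 0.04, 0.04 and -0.01, and furan animal 42 had -0.06 and 0.06 in its formalin pieces. Near an even split were control animal 02 after 3 weeks, with 19 of 36 members above its group mean, furan animal 44 after 3 weeks, also with 19, and furan animal 42 after 18 h, with 17.

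**Figure D3:**
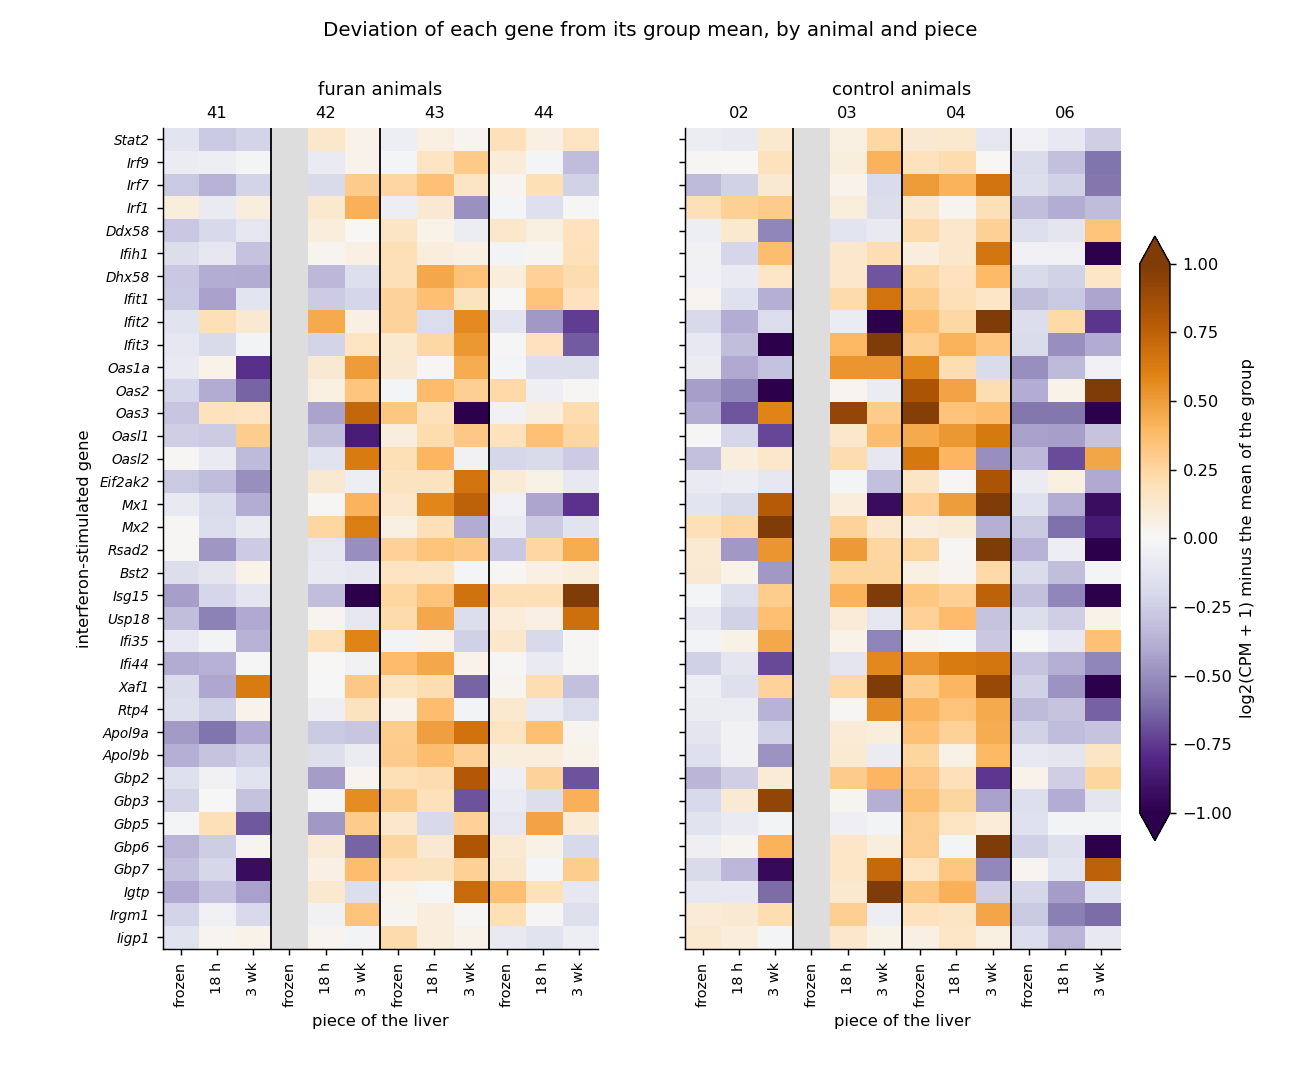
Heat map of the deviation of each member (down the page) from the mean of its treatment and piece, in log2(CPM + 1), for every library, with furan animals left of control animals, colours capped at 1 and -1, and grey where no frozen library was used. Control animal 04 and furan animal 43 are above 0 for most members, with mean deviations of 0.31 and 0.16 in frozen liver, and control animal 06 and furan animal 41 are below, with -0.22 and -0.20.

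The ranks of the animals give the same description without a scale. Frozen ranks are among 3 animals and formalin ranks among 4. Furan animal 41 was lowest of its group for 31 of 36 members in frozen liver, where it was lowest for 32.6% of all genes, and for 20 of 35 after 18 h (28.5% of all genes). Furan animal 43 was highest for 27 of 36 in frozen liver (32.6% of all genes) and 24 of 35 after 18 h (25.5%). Control animal 04 was highest for 32 of 36 in frozen liver (32.6%) and 20 of 35 after 18 h (16.5%). After 3 weeks the ranks were less uneven. Animal 41 was then lowest for 16 of 36 members (20.6% of all genes) and animal 04 highest for 14 of 35 (22.7%). Animal 43 was then highest for 14 of 36 (32.3%), near the share of all genes. Ranking in every piece only the 3 animals a group that have a frozen library, animal 04 was highest in both the frozen and 18 h pieces for 28 of 35 members and 12.4% of 12673 genes, and in all 3 pieces for 16 of 35 members and 5.14% of genes. On the same ranking animal 41 was lowest in all 3 pieces for 15 of 35 members and 7.20% of genes, and animal 43 was highest for 11 of 35 members and 7.11% of genes. The members are not independent of each other, and these shares describe 8 mice.

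Summed markers of macrophages ranked control animals 04 and 06 and furan animals 41 and 43 as the members did. The summed level of 12 macrophage markers in frozen liver was 331, 416.5 and 379 CPM in furan animals 41, 43 and 44, against 357, 840 and 309 CPM in control animals 02, 04 and 06. After 18 h it was 533, 587, 696.5 and 648 CPM in furan animals 41 to 44, against 637, 655, 1167 and 574.5 CPM in the controls, and after 3 weeks 545, 766, 795 and 645 CPM in the furan animals, against 618, 691, 1363 and 590 CPM in the controls. Control animal 04 was highest of its group for 12 of 12 markers in all 3 pieces, and control animal 06 was lowest for 12, 9 and 8 of them. Furan animal 43 was highest for 10, 8 and 7 markers, but lowest for 3 after 3 weeks, and furan animal 41 was lowest for 11, 10 and 9. Control animal 03, whose members lay above the group mean, was highest for 0 of 12 markers in both formalin pieces. It was lowest for 3 of them after 3 weeks, and its sums of 655 and 691 CPM came next after those of animal 04. None of the 12 markers was at 0 throughout a group. Other immune lists were lower and followed the animals less evenly. The sum of 12 T and NK cell markers was 3.69, 4.65 and 4.47 CPM in frozen livers of furan animals 41, 43 and 44, against 4.38, 7.58 and 3.57 CPM in control animals 02, 04 and 06. It was highest among the controls in animal 04 also after 18 h (12.9 CPM), but after 3 weeks in animal 02 (18.7 CPM), where Cd3d and Prf1 were at 0 in all control libraries. Among the furan animals this sum was lowest in animal 41 after 18 h (9.51 CPM) but highest in animal 41 after 3 weeks (18.3 CPM). The sum of 6 plasmacytoid dendritic cell markers was lowest of the furan animals in animal 41 in all 3 pieces, with 24.3, 59.3 and 39.7 CPM. Among the controls it was highest in animal 04 in frozen liver and after 18 h (29.6 and 100.5 CPM). After 3 weeks it was highest in control animal 06 (66.7 CPM, against 58.6 CPM in animal 04), unlike the members. The sum of 6 B and plasma cell markers was 2.54 to 2.62 CPM in frozen furan livers, against 3.75 CPM in control animal 04 and 2.11 and 2.17 CPM in control animals 02 and 06. Among the controls it was highest in animal 03 after 18 h (9.45 CPM, against 9.03 CPM in animal 04). After 3 weeks it was highest in animal 06 (5.62 CPM, against 3.94 CPM in animal 04), where Cd79a, Ms4a1 and Mzb1 were at 0 in all control libraries. Furan animal 43 was lowest of its group after 18 h (5.20 CPM) and highest after 3 weeks (6.65 CPM). The part of any of these markers in the differences between animals was not tested.

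**Figure D4:**
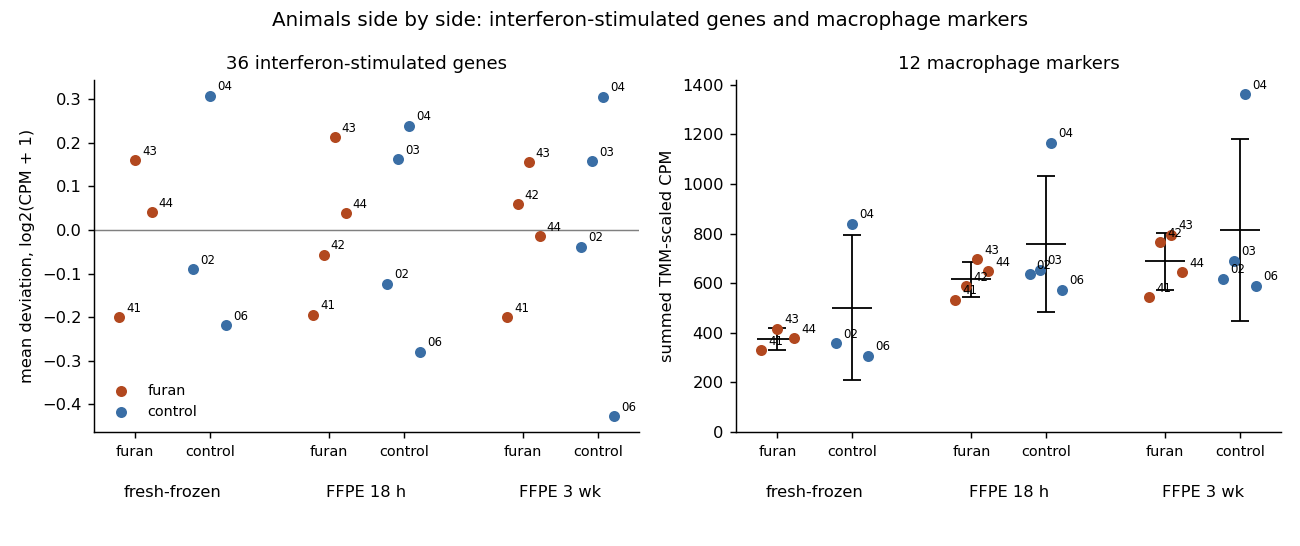
Left, mean deviation of the 36 members from their group mean, in log2(CPM + 1), and right, summed CPM of 12 macrophage markers with group mean ± SD, for each library labelled by animal, furan left of control in each kind of piece. Control animal 04 is the highest control in both panels, with 0.31 and 840 CPM in frozen liver, and control animal 06 the lowest, with -0.22 and 309 CPM.

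The effect of preservation on the members was read from control animals alone. There kit, number of sections, RNA quality and library depth differ together with the fixation and cannot be told apart from it. The labels give RNA integrity numbers, which fall as RNA breaks down, above 8.9 for frozen pieces and of 1.3 to 2.4 for FFPE pieces. After 18 h of formalin, against frozen liver, 23 of 36 members were called, where 68.0% of 13034 genes were called, and 15 were higher and 8 lower in the formalin pieces (34.2% and 33.8% of genes). Of the 9 RNA-binding effectors 4 rose and 1 fell, and of the 4 membrane or dynamin-like effectors 3 rose. Bst2 rose by 1.68 ± 0.14 on the log2 scale, Ifit1 by 1.70 ± 0.18, Ifi35 by 1.31 ± 0.09 and Apol9b by 1.07 ± 0.11. The interferon-gamma-inducible GTPases lay on the other side, with 5 of 8 lower and 0 higher by edgeR at an adjusted p under 0.05. Gbp6 fell by 2.43 ± 0.20, Iigp1 by 1.43 ± 0.13, Gbp7 by 1.24 ± 0.17 and Gbp5 by 2.97 ± 0.35. Ifih1 fell by 1.09 ± 0.11. With the animal as a block, which left out control animal 03, 32 of 36 members were called, where 70.7% of 13382 genes were called. Of the words of Gbp6, 90.2% occur in Gm43302, so its counts are uncertain in all pieces.

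The values behind 2 of these show the size of the shifts. Iigp1 had 162, 167, 168 and 119 CPM in the 18 h pieces of control animals 02, 03, 04 and 06, against 487, 465 and 395 CPM in frozen liver of control animals 02, 04 and 06. Bst2 had 172, 198, 169 and 134 CPM in the 18 h pieces, against 61.6, 59.7 and 49.8 CPM in frozen liver. Neither gene overlapped between the kinds of piece. Of the members, 9 separated with formalin higher and 8 with formalin lower, against 30.2% and 38.1% of all genes (68.3% in all). After 3 weeks, against frozen liver, 7 of 36 members were called, where 26.2% of 12145 genes were called. Ifit1 rose by 2.03 ± 0.34, Oasl2 by 1.88 ± 0.40, Rtp4 by 1.57 ± 0.38, Bst2 by 0.75 ± 0.19 and Apol9b by 0.70 ± 0.21, and Iigp1 fell by 1.02 ± 0.11. Gbp5, also lower, had 1 count in the 3 week and 418 counts in the frozen control libraries, a ratio of 0.00968 with a 95% counting interval of 0.000244 to 0.0542. In both comparisons with frozen controls Gbp5 passed the filter on low counts only through the frozen libraries. With the animal as a block, again without control animal 03, 7 members were called, where 21.9% of 12911 genes were called. Bst2 and Gbp5 then did not pass (adjusted p = 0.0664 and 0.0929, edgeR). With 1 library left out in turn, Apol9b, Bst2, Gbp5, Rtp4 and Oasl2 each failed to pass at least once, and Ifit1 and Iigp1 passed each time. Apol9b passed in 4 of 11 alternative settings, with adjusted p up to 0.158.

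**Figure D5:**
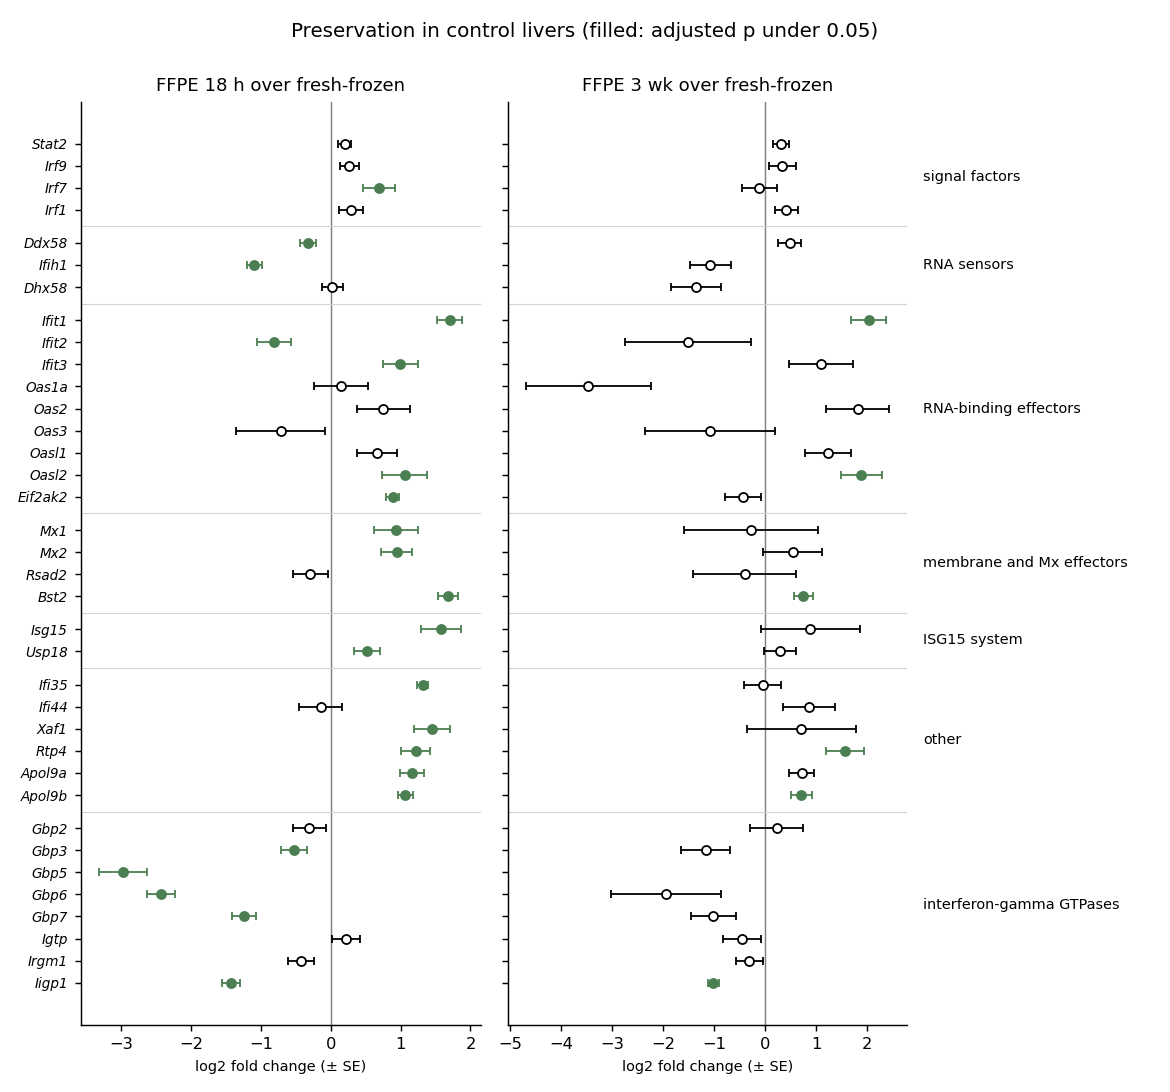
Log2 differences of the members in control animals after 18 h and 3 weeks of formalin, against frozen liver, with bars of 1 standard error; filled points passed the adjusted p threshold of 0.05. The guanylate-binding and immunity-related GTPases reach -2.43 (Gbp6) and -2.97 (Gbp5) after 18 h, while Bst2 and Ifit1 reach 1.68 and 1.70; Gbp5 is not drawn at 3 weeks.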

How the data were processed

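Counts per gene were deposited by the authors as 1 table of whole-number read counts, not normalized, with no strand information. Per the submitters' processing notes, base calling used CASAVA 1.8.2, reads were aligned with STAR 2.3.0 to mm9 and counted with featureCounts 1.4.4. RNA was poly(A)-selected, per the labels' protocols, from about 100 mg of frozen tissue, or from 1 (18 h) or 2 (3 weeks) sections of 10 µm with an FFPE kit. Of 24 columns, 22 matched a label. The other 2, of frozen liver, were not used. The frozen labels of control animal 03 and furan animal 42 matched no column, which left 3 frozen libraries a group. Whether the unused columns come from these animals is not known. R 4.3.3, edgeR 4.0.16 (filterByExpr, TMM, quasi-likelihood), limma 3.58.1 and DESeq2 1.42.0 were used, and tests were tried on simulated data. Standard errors are the log2 fold change over the root of F. Members and lists were chosen with earlier results of these data known. Members named with values are those past the threshold, the 3 largest differences each way, the 6 smallest animal p-values and a fixed set per role; values of Dhx58, Gbp3, Gbp5, Ifi35 and Rtp4 follow from these or were added after they were seen. Same-numbered pieces come from the same animal, per the labels; their deviations correlated at 0.411 to 0.520 (18 h with frozen), 0.0913 to 0.285 (3 weeks with frozen) and 0.0168 to 0.300 (3 weeks with 18 h). Shared words and lengths are from GENCODE transcripts. No 2 libraries were alike within counting noise, with a lowest chi-square per degree of freedom of 9.73.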

Additional observations from a re-analysis of the deposited data

Results flagged for a closer look

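In groups of 4 libraries a value was singled out where its gap to the nearest of the others, over the range of the group, passed Dixon's critical value for 4 values. This happened in 8 of 124 groups over 31 members, and chance flags about 1 in 20 groups. After 18 h, Ddx58 was low in furan animal 41 (25.9 CPM, others 30.9 to 31.7), Oasl2 was high in furan animal 43 (15.4 CPM, others 9.90 to 10.8) and Iigp1 was low in control animal 06 (119 CPM, others 162 to 168). After 3 weeks, Oasl1 was low in furan animal 42 (7.99 CPM, others 18.2 to 19.3) and Gbp7 was low in furan animal 41 (6.97 CPM, others 17.4 to 18.7). In the 3 week controls, Eif2ak2 was high in animal 04 (29.1 CPM, others 11.8 to 14.7), Gbp3 was high in animal 02 (13.7 CPM, others 4.73 to 6.11), and Gbp5 had its single count in animal 04 (0.0875 CPM, others 0).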

How the results depend on the processing

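Under the alternatives, 1239 of 1319 values of single genes kept their side of the threshold, 49 lost a call and 31 gained one. Of called values, 0 changed sign, but 87 of the 1239, all without a call, had the other sign. Values of the animal test are adjusted p and have no direction. Counts of calls moved more, and the cause was not tested. In 1 model of all 6 groups, furan called 138 genes in frozen liver (2162 in the separate model), 225 genes and 0 members after 18 h (1077 and 1), and 2030 genes and 6 members after 3 weeks (99 and 1). DESeq2 called 3 members in frozen liver (2336 of 14293 genes), 2 after 18 h (1370 of 13589) and 3 after 3 weeks (371 of 13042). It called 1, 38 and 97 genes in the 3 interactions, with 1 and 2 members in those of the 3 week pieces, and 13 members in 3 week against frozen controls (3975 of 13856 genes), against 7 by edgeR. With no filter on low counts, 2 members were called after 18 h (1117 of 18591 genes) and 2 after 3 weeks (194 of 16434), and with robust dispersions 2 after 18 h (1121 of 12832). With only the animals that have a frozen library, 594 genes and 0 members were called after 18 h, and 19 genes and 0 members after 3 weeks.

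Some alternatives were chosen after seeing the data. With Apol9a and Apol9b summed, 0 members were called after 18 h, and without the 2 shallowest 3 week libraries 12 genes were called. The animal test (369 genes, 3 members) called 153 genes and 1 member without frozen libraries, 77 and 0 without 18 h libraries, 1477 and 24 without 3 week libraries, 1505 and 22 with limma voom, and 893 and 12 by DESeq2's likelihood ratio test.

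Leaving out 1 library each time gave 864 to 1620 genes and 0 to 3 members in frozen liver, 633 to 1285 and 0 to 5 after 18 h, and 17 to 173 and 0 to 3 after 3 weeks, with most members without control animal 06. In the interactions it gave 0 to 5 genes (3 weeks minus frozen) and 0 to 37 (3 weeks minus 18 h). In control animals it gave 8111 to 9299 genes and 18 to 27 members for 18 h against frozen, and 1978 to 4398 and 2 to 11 for 3 weeks against frozen. In the animal test, leaving out 1 animal each time gave 214 to 417 genes and 1 to 3 members.

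With the animal as a replicate block, 18 h against frozen controls called 9460 genes and 32 members (8867 and 23 without it), 3 weeks against frozen 2827 and 7 (3188 and 7), and the 3 interactions 2, 0 and 0 genes with 0 members. Animals without a frozen library did not enter the block models that hold frozen pieces. Members at 0 counts occurred in 4 libraries, all of 3 week pieces: furan animal 43 (1 member, 3895208 counts in all), and control animals 02 (2 members, 3666173), 03 (1 member, 9708205) and 06 (3 members, 9865040).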
